A study of Danio rerio with 15 samples.

Results

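Cytosolic ribosomal proteins are the proteins that, together with ribosomal RNA, build the large and the small subunit of the ribosome that translates nuclear-encoded mRNA. Their transcripts were followed here in zebrafish Müller glia during the first 36 hours after a light lesion of the retina. Members were the probe sets of the authors' deposited comparison table whose gene symbol or gene title names a cytosolic ribosomal protein, leaving out ribosomal protein kinases and mitochondrial ribosomal proteins. Probe sets carrying several gene symbols were left out as well. A gene with several probe sets was represented by the one with the highest mean over all arrays. This gave 57 genes from 58 probe sets, 33 of the large and 24 of the small subunit, out of 15502 probe sets tested. The symbols of 54 are current RefSeq symbols, and 3 are older names, among them rpl28l, now rpl28, and rplp2l, now rplp2b. The gene rpsa entered by its title alone.

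Every one of the 3164 probe sets of that table changed at least 2-fold against 0 hours at 1 or more times. A gene could therefore be a member only if it had changed, and the counts of members changed against 0 hours are descriptions from which nothing is read. The subunit of a gene was not used to choose members, nor was the order of its changes as such. A gene that kept rising could still enter through its last time, as did the 2 members that first reached 2-fold at 36 hours. The order of the changes is therefore not fully free of that choice. The lower end of the members' changes is set in part by the 2-fold minimum. Of the 3361 tested probe sets that changed at least 2-fold, 197 are not in that table. What set them apart was not tested, so the 2-fold minimum may not be the only condition for membership.

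The ribosome is made in the nucleolus, where ribosomal RNA is transcribed, folded and joined by ribosomal proteins imported from the cytoplasm. Most ribosomal proteins are needed in equal numbers, and many vertebrate ribosomal protein mRNAs carry a 5′ terminal oligopyrimidine tract through which their translation follows growth signals. Müller glia are the radial glia of the retina, and in zebrafish they re-enter the cell cycle after photoreceptor loss and give rise to progenitors that replace the lost neurons.

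The cells came from 5- to 6-month-old fish of the line Tg(gfap:GFP)mi2002, in which the gfap promoter drives GFP, and all groups carried this transgene. GFP-positive cells were sorted from dissociated retinas of lesioned fish 8, 16, 24 or 36 hours after the lesion (hpl, hours post-lesion), and fish kept from the light treatment gave the 0 hpl group. Each of the 5 groups had 3 biological replicates with 1 Affymetrix array each, and 20 ng of total RNA per sample was linearly amplified. All values below are log2 values made by RMA, changes are differences of group means on that scale with the standard error (SE) of a limma fit over all 15 arrays, and a call is an adjusted p under 0.05 over all tested probe sets.

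The median value of an array lay between 4.41 and 4.67. Precision is limited by having 3 arrays per group. Among the named Müller glia markers, the highest 0 hpl means were 11.75 for glula (glutamine synthetase) and 11.33 for rlbp1a (a retinoid-binding protein). The lowest was 6.57 for s100b. Of the 27 markers listed, 10 were named, and their summed linear signal went from 11190 to 12710 at 0 hpl to 4769 to 5744 at 36 hpl, with 7 called lower and 2 higher. The 11 named rod and cone markers of 43 listed summed to 1761 to 3205 at 0 hpl, 2529 to 4561 at 8 hpl and 840.7 to 1459 at 36 hpl. Their median change at 8 hpl was -0.38, with 3 called lower and 1, gngt1, higher by 1.44, and at 36 hpl 8 were called lower and 1 higher. The 7 named inner retinal neuron markers of 32 summed to 1007 to 1364, 1199 to 2542 and 427.9 to 798.3 at the same times, with 4 called higher and 1 lower at 8 hpl and 0 and 3 at 36 hpl. None of 26 leukocyte markers was named. Markers were named only from the authors' table, where every probe set had changed at least 2-fold, so unchanged markers could not appear. The sums therefore cover changed markers only, and a marker left unnamed is not shown to be absent. An Affymetrix control probe set for GFP read 2.90 to 3.68, below the array median in all 15 arrays. Whether it matches the GFP of the transgene was not tested, so absence of GFP is not read from it. In sorted populations a smaller share of cells of a type and less RNA per cell cannot be told apart, and the part of these shifts in the values below was not tested.

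Transcripts of all 57 ribosomal protein genes were higher from 16 hpl on than in the Müller glia sorted from unlesioned fish. Their median was higher at each later time. The median change of the 57 genes was 0.51 at 8 hpl, 1.37 at 16 hpl, 1.69 at 24 hpl and 2.05 at 36 hpl, or 4.15-fold by then. The median over all tested probe sets stayed between -0.10 and -0.14, and that over the other probe sets of the authors' table was 0.20, 0.48, 0.51 and 0.72. At 8 hpl 22 of 57 members were called higher, where 12.0% of all tested probe sets were. At 16 hpl all 57 were called higher (18.4% of all tested), as they were at 24 hpl (16.3%) and at 36 hpl (19.9%), and no member was called lower at any of the 4 times (14.5%, 21.9%, 14.2% and 26.6% of all tested were). The single changes ran from -0.28 to 2.42 at 8 hpl and from 1.02 to 3.26 at 36 hpl.

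**Figure D1:**
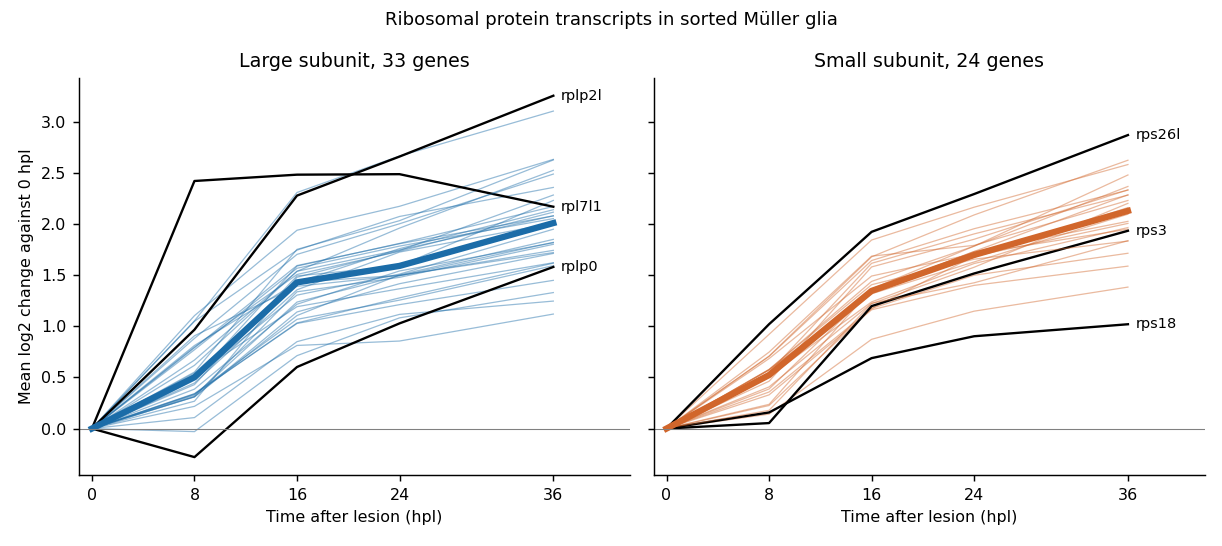
Mean log2 change against 0 hpl (vertical axis) over hours post-lesion (horizontal axis) for each large subunit gene (left) and small subunit gene (right), with the median of the subunit as a thick line. The medians of the subunits run side by side to 2.01 and 2.13 at 36 hpl, and rpl7l1 stands apart with 2.42 at 8 hpl.

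The largest step of the median lay between 8 and 16 hpl. Relative to its own change at 36 hpl, the median member had reached 23.3% at 8 hpl, 67.5% at 16 hpl and 82.1% at 24 hpl. A 2-fold mean change was first reached at 8 hpl by 5 genes, at 16 hpl by 46, at 24 hpl by 4 and at 36 hpl by 2. The mean was higher at every step from 0 to 36 hpl for 54 of the 57 genes. Over all tested probe sets 4.55% showed that order, and 14.7% of the 3361 that changed at least 2-fold in either direction at some time. Those 3361 include probe sets that fell, so 14.7% is not the share among probe sets that rose. The 3 exceptions were rplp0 and rpl30, whose means at 8 hpl were below those at 0 hpl, and rpl7l1, whose mean at 36 hpl was below that at 24 hpl. Means peaked at 36 hpl in 56 genes. The 2 genes that first reached 2-fold at 36 hpl were members only through that time, so these counts are not independent of how members were chosen.

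Between consecutive times, 47 of the 57 genes were called higher at 16 than at 8 hpl, where 5.48% of all tested probe sets were, with a median change of 0.83. The count was 31 without 16 hpl replicate 3 and 54 without 8 hpl replicate 3. The smallest adjusted p of a member in that step was 9.52e-05, for rps3, a protein of the mRNA entry of the small subunit. From 16 to 24 hpl the median change was 0.28 and all 57 differences were positive. No member was called in that step by limma, where 0.290% of all tested probe sets were called higher. Without adjustment 10 members had a p under 0.05, and the smallest adjusted p was 0.22. From 24 to 36 hpl the median change was 0.35, and 3 members were called higher (3.11% of all tested), with 21 under an unadjusted p of 0.05. None was called without 24 hpl replicate 1, 24 hpl replicate 2 or 36 hpl replicate 2, and 1 was without 24 hpl replicate 3 or 36 hpl replicate 3.

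The 3 genes called from 24 to 36 hpl were all of the small subunit, and rpsa is named here after its values were seen. The gene rps19, whose human counterpart is the gene most often mutated in Diamond-Blackfan anaemia, was 0.63 higher (adjusted p 0.0362). The gene rps2, at the mRNA entry, was 0.55 higher (adjusted p 0.0415), and rpsa, which sits on the solvent side of the small subunit, was 0.58 higher (adjusted p 0.0284). None of the 33 large subunit genes passed, although the largest differences of that step included 0.64 for rpl26 beside 0.70 for rps10. Whether the subunits differ in this step was not tested.

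Among the members, large and small subunit genes had similar median changes at all 4 times. The median change of the 33 large subunit genes was 0.50 at 8 hpl, 1.43 at 16 hpl, 1.59 at 24 hpl and 2.01 at 36 hpl. That of the 24 small subunit genes was 0.52, 1.35, 1.70 and 2.13. The share of the 36 hpl change reached at 16 hpl had a median of 68.4% for the large and 66.6% for the small subunit. At 8 hpl 13 of 33 large and 9 of 24 small subunit genes were called higher (12.0% of all tested probe sets). From 8 to 16 hpl 28 and 19 were (5.48%).

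Per array, the large subunit median minus the small subunit median, both as differences from the 0 hpl means, was -0.03, -0.00 and 0.05 at 0 hpl. It was 0.12, -0.07 and 0.07 at 8 hpl and 0.10, 0.04 and 0.05 at 16 hpl. At 24 hpl it was -0.03, -0.10 and -0.04, and at 36 hpl -0.02, -0.25 and -0.15. The 3 arrays of 16 hpl were above 0 and the 6 of 24 and 36 hpl below, but the 36 hpl values overlapped those of 0 hpl. The difference of the medians at 36 hpl was -0.12, or 0.01 with array weights in the fit, and it ranged from -0.23 to 0.03 when single arrays were left out, the highest value without 0 hpl replicate 3. No order of the subunits is read from these values.

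**Figure D2:**
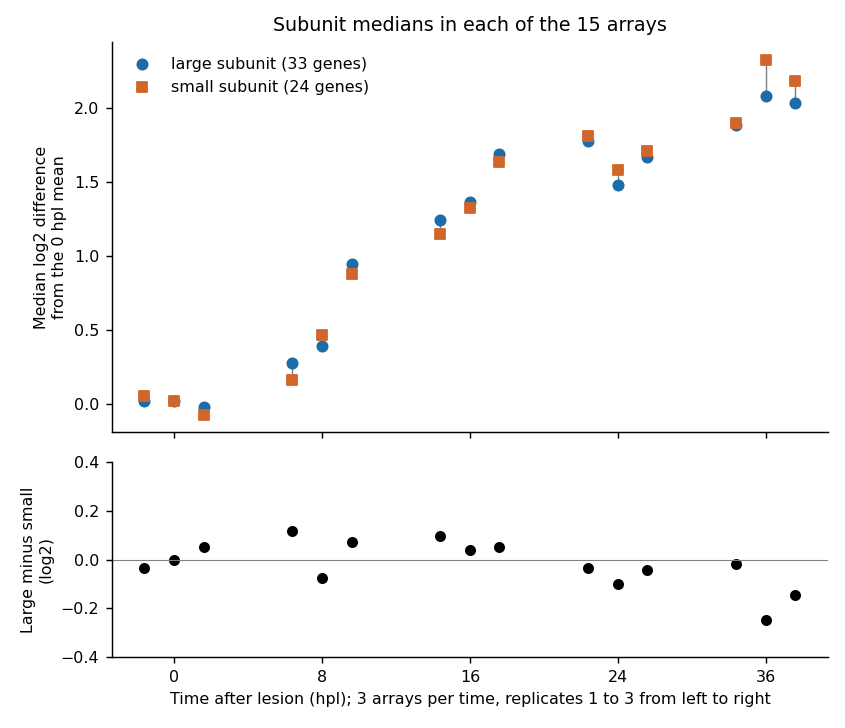
Median log2 difference from the 0 hpl mean for large subunit (circles) and small subunit genes (squares) in each of the 15 arrays (top), and large minus small (bottom), with replicates 1 to 3 from left to right at each time in hpl. The subunits lie within 0.25 of each other in every array, while both climb by about 2 log2 units.

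In the large subunit, the stalk draws elongation factors to the ribosome, and its genes held both the smallest change of all members at 8 and 16 hpl and the largest at 36 hpl. The gene rplp0, which encodes the base of the stalk, read 8.65, 9.01 and 9.42 at 0 hpl, 8.91, 8.47 and 8.88 at 8 hpl and 9.78, 9.39 and 9.73 at 16 hpl. It read 10.27, 10.19 and 9.72 at 24 hpl and 10.88, 10.52 and 10.44 at 36 hpl. The arrays of 0 and 8 hpl overlapped, 1 array of 16 hpl lay just under the highest control, and those of 24 and 36 hpl were above all controls. Its change was -0.28 ± 0.21 (SE) at 8 hpl (adjusted p 0.338), 0.60 at 16 hpl (adjusted p 0.0335), 1.03 at 24 hpl and 1.58 at 36 hpl (adjusted p 2.39e-05). It was the only member whose 16 hpl arrays overlapped the controls, since 56 of 57 did not (22.2% of all tested probe sets had all 3 arrays above). At 24 and 36 hpl the arrays of all 57 genes were above the controls (20.8% and 22.6% of all tested). The 16 hpl call of rplp0 was lost without 0 hpl replicate 1 or 2, without 16 hpl replicate 1 or 3, and with quantile normalisation applied again.

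The gene rplp2l encodes P2, a protein that binds to the stalk base. It read 7.78, 7.97 and 7.56 at 0 hpl, 8.35, 8.52 and 9.34 at 8 hpl and 9.87, 9.93 and 10.35 at 16 hpl. It read 10.72, 10.31 and 10.26 at 24 hpl and 10.84, 11.07 and 11.17 at 36 hpl. Every array after the lesion was above every control. Its changes were 0.97, 2.28, 2.66 and 3.26 ± 0.23, and the last, 9.56-fold (adjusted p 3.3e-08), was the highest of all 57 genes. At 36 hpl its change was 3.26, beside 1.58 for rplp0, which encodes the protein that P2 binds. The stalk genes rplp1 and rplp2 were not named here. The rplp2l probe set also read lower at 0 hpl than that of rplp0, and members with a lower 0 hpl signal had larger changes. Whether the 2 transcripts differ in their rise was not tested.

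The gene rpl10, whose protein joins the large subunit late in the cytoplasm, changed by 0.77, 1.57, 1.79 and 2.05 ± 0.16 and was called at every time. The gene rpl10a, of the L1 stalk on the opposite side of the subunit, changed by 0.33, 1.03, 1.28 and 1.62 ± 0.13, and its 8 hpl change was not called (adjusted p 0.0702). Neither set of arrays overlapped the controls at any time.

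The 5S ribonucleoprotein carries 5S RNA into the large subunit, and in mammals its free form binds the p53 regulator Mdm2. Its genes rpl5a, rpl5b and rpl11 had a median change of 0.34, 1.34, 1.48 and 1.80 at the 4 times. The gene rpl5a read 10.39, 10.30 and 10.14 at 0 hpl, 10.61, 10.65 and 10.52 at 8 hpl, 11.62, 11.64 and 11.59 at 16 hpl, 11.69, 11.64 and 11.95 at 24 hpl and 12.09, 12.16 and 12.01 at 36 hpl. All its later arrays were above the controls, and the replicates at 16 hpl were nearly the same. Its change was 0.31 ± 0.12 at 8 hpl (adjusted p 0.0699) and 1.02 from 8 to 16 hpl (adjusted p 0.00018). Its paralog rpl5b changed by 0.34, 1.07, 1.26 and 1.59 ± 0.12, and its 8 hpl call (adjusted p 0.0425) was lost without any 1 of several arrays, among them each array of 0 hpl and 8 hpl replicates 2 and 3. The probe sets of such close paralogs may share targets, which was not tested. The gene rpl11 changed by 0.45, 1.36, 1.73 and 2.01 ± 0.21, with 8 hpl arrays that overlapped the controls and an 8 hpl change called only without 8 hpl replicate 1 or with arrays scaled on control probe sets.

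Around the exit tunnel, where the nascent chain leaves the ribosome, rpl23a, rpl26, rpl35 and rpl19 encode proteins of the rim or its neighbourhood. The gene rpl23a, part of the docking site of the signal recognition particle, changed by 0.67, 1.54, 1.75 and 2.08 ± 0.15 and was called at all 4 times. The gene rpl35 changed by 0.50, 1.31, 1.51 and 1.95 ± 0.21, and rpl26 by 0.43, 1.49, 1.59 and 2.23 ± 0.27, both called from 16 hpl on.

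The gene rpl19 was less even. It read 7.59, 7.67 and 7.51 at 0 hpl, 7.69, 8.31 and 9.21 at 8 hpl, 8.83, 8.74 and 9.50 at 16 hpl, 9.67, 8.67 and 8.93 at 24 hpl and 8.63, 9.65 and 9.66 at 36 hpl. All later arrays were above the controls, but within each later group the highest and lowest differed by 0.76 to 1.51. Its SE was 0.36, and its change of 0.81 at 8 hpl was not called (adjusted p 0.105), while 1.72 at 36 hpl was (adjusted p 0.00117).

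Among the other large subunit genes, rpl4, which lines the tunnel, was among the early ones. It read 8.77, 8.87 and 8.90 at 0 hpl, 9.66, 9.77 and 10.43 at 8 hpl, 10.76, 10.61 and 11.00 at 16 hpl, 11.08, 10.93 and 11.06 at 24 hpl and 11.47, 11.45 and 11.52 at 36 hpl. No array after the lesion overlapped the controls. Its changes were 1.105 (adjusted p 0.00026), 1.94, 2.17 and 2.63 ± 0.17.

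The gene rpl21 changed by 1.05, 2.31, 2.67 and 3.11 ± 0.19, the second highest change at 36 hpl. The gene rpl3, near the peptidyl transferase centre, changed by 0.91, 1.39, 1.50 and 1.74 ± 0.12, so that the probe set used moved by only 0.48 from 8 to 16 hpl. It is the member with 2 probe sets, and the other gave 0.96, 1.66, 1.70 and 2.16. That other probe set had a larger step from 8 to 16 hpl and the same calls against 0 hpl. At the low end, rpl6 changed by 0.22, 0.81, 0.86 and 1.12 ± 0.11, rpl14 by 0.11, 0.85, 1.12 and 1.25 ± 0.12, and rpl30 by -0.03, 0.71, 1.08 and 1.33 ± 0.16. None of these 3 was called at 8 hpl, and all were from 16 hpl on.

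The gene rpl7l1 had reached its level by 8 hpl. It read 6.46, 6.42 and 6.23 at 0 hpl, 8.35, 8.94 and 9.09 at 8 hpl, 8.84, 8.55 and 9.18 at 16 hpl, 8.78, 8.74 and 9.06 at 24 hpl and 8.32, 8.76 and 8.55 at 36 hpl. The step lay wholly between 0 and 8 hpl, and the arrays of the 4 later times overlapped one another. Its change was 2.42 ± 0.20 at 8 hpl, 5.36-fold (adjusted p 7.53e-07), then 2.48, 2.49 and 2.17. Neither the step from 8 to 16 hpl (0.06, adjusted p 0.928) nor that from 24 to 36 hpl (-0.32, adjusted p 0.403) was called. Its namesake rpl7, a structural protein of the large subunit, changed by 0.33, 1.24, 1.49 and 1.82 ± 0.17 and was not called at 8 hpl (adjusted p 0.168). In yeast the rpl7-like protein Rlp7 is an assembly factor of the large subunit and no part of the finished ribosome.

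Over the 15 arrays, rpl7l1 correlated with the median of the other members at r = 0.667, the lowest of the 57 genes. The next were rpl19 at 0.868 and rplp0 at 0.871. With the median of 56 ribosome assembly genes rpl7l1 correlated at r = 0.946. The other 56 members correlated with that median at 0.504 to 0.921, with a median of 0.775. The comparison of rpl7l1 with the assembly genes was chosen after its values were seen. These correlations describe 15 arrays that share time groups and libraries, and no test was made. Without rpl7l1 the large subunit medians were 0.50, 1.41, 1.57 and 1.98.

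**Figure D3:**
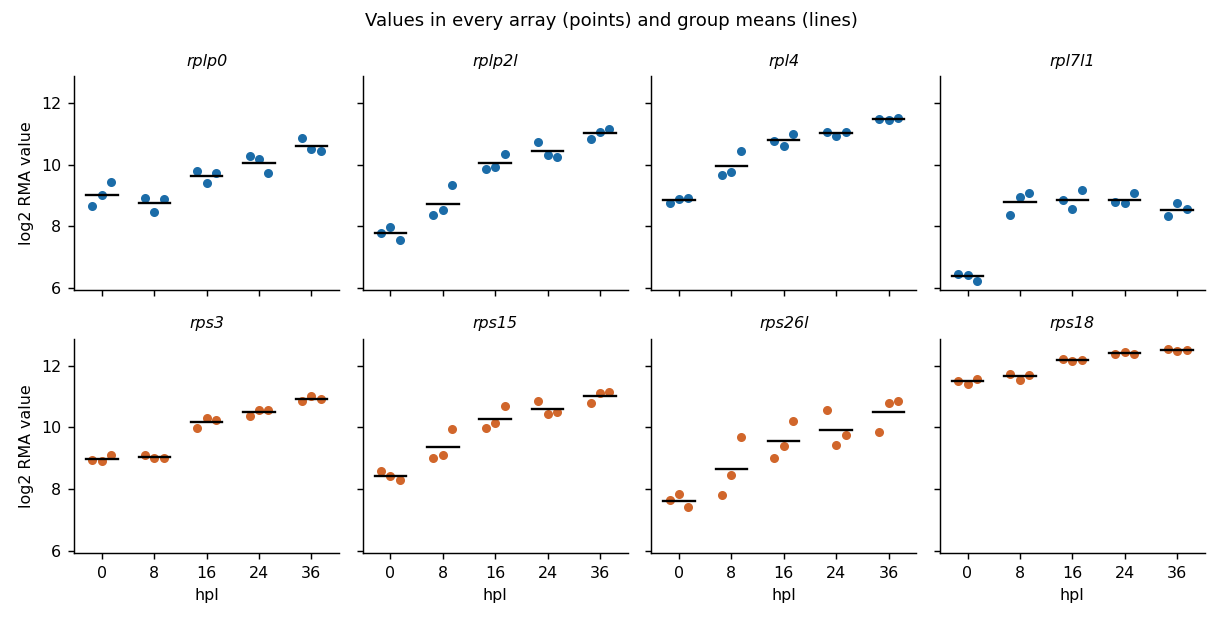
Log2 RMA value in each array (points) and group mean (lines) at 0, 8, 16, 24 and 36 hpl for 4 large subunit genes (top) and 4 small subunit genes (bottom). The gene rpl7l1 steps up by 8 hpl and stays between 8.32 and 9.18, rplp0 and rps3 are within or near the control range at 8 hpl, and rps26l spreads widely within groups.

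In the small subunit, rps2 and rps3 lie at the entry of the mRNA channel, rps15 near the decoding site and rps26 at the exit. The gene rps3 read 8.95, 8.91 and 9.11 at 0 hpl, 9.10, 9.00 and 9.01 at 8 hpl, 9.99, 10.30 and 10.26 at 16 hpl, 10.37, 10.57 and 10.57 at 24 hpl and 10.85, 11.01 and 10.91 at 36 hpl. The 8 hpl arrays lay within the range of the controls, and all later arrays were well above. Its change was 0.05 ± 0.12 at 8 hpl (adjusted p 0.778), then 1.20, 1.52 and 1.94. The gene rps2 changed by 0.53, 1.34, 1.73 and 2.29 ± 0.15, and its 8 hpl call (adjusted p 0.0162) was lost without 8 hpl replicate 3.

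The gene rps15 moved earlier than rps3. It read 8.59, 8.43 and 8.28 at 0 hpl, 9.00, 9.12 and 9.94 at 8 hpl, 9.99, 10.15 and 10.69 at 16 hpl, 10.86, 10.43 and 10.51 at 24 hpl and 10.80, 11.10 and 11.14 at 36 hpl. Every later array was above the controls, with the third replicate of 8 hpl far above the others. Its changes were 0.92 (adjusted p 0.00971), 1.84, 2.17 and 2.58 ± 0.23.

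The gene rps26 and its close relative rps26l were the least precise. The gene rps26l read 7.64, 7.83 and 7.41 at 0 hpl, 7.79, 8.44 and 9.70 at 8 hpl, 9.01, 9.41 and 10.22 at 16 hpl, 10.57, 9.44 and 9.75 at 24 hpl and 9.84, 10.79 and 10.86 at 36 hpl. Its 8 hpl arrays spread over 1.91 and overlapped the controls. Its change of 1.02 ± 0.43 at 8 hpl was not called (adjusted p 0.0902) except without 8 hpl replicate 1 or with arrays scaled on control probe sets, and at 36 hpl its 2.87 (adjusted p 7.05e-05) was the highest of the small subunit. The gene rps26 changed by 0.46, 1.58, 1.85 and 2.34 ± 0.37 and was called from 16 hpl on.

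The smallest change at 36 hpl of all 57 genes, just past the 2-fold minimum of the table, was that of rps18, a protein of the head of the small subunit. It read 11.51, 11.41 and 11.58 at 0 hpl, 11.73, 11.54 and 11.71 at 8 hpl, 12.21, 12.17 and 12.19 at 16 hpl, 12.38, 12.45 and 12.38 at 24 hpl and 12.55, 12.49 and 12.52 at 36 hpl. For rps18, 1 array of 8 hpl lay within the control range, and all arrays from 16 hpl on were above it. Its changes were 0.16 (adjusted p 0.299), 0.69, 0.90 and 1.02 ± 0.11.

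The gene rpsa read 8.64, 8.62 and 8.47 at 0 hpl, 8.75, 8.93 and 8.75 at 8 hpl, 9.74, 9.94 and 10.13 at 16 hpl, 10.38, 10.20 and 10.50 at 24 hpl and 10.78, 11.17 and 10.87 at 36 hpl. Each group lay above the group before it, without overlap, at all 4 steps. Its changes against 0 hpl were 0.24 (adjusted p 0.231), 1.37, 1.79 and 2.37 ± 0.14. The gene rps19 changed by 0.18 (adjusted p 0.431), 1.22, 1.58 and 2.204 ± 0.16. The gene rps29, which had the highest difference of all members from 16 to 24 hpl at 0.51, changed by 0.23, 1.17, 1.69 and 2.01 ± 0.16 against 0 hpl.

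Mutations of some ribosomal protein genes cause Diamond-Blackfan anaemia in human, and 17 members are the zebrafish counterparts of such genes, among them rps19, rps26, rpl5a, rpl5b and rpl11. Their median changes were 0.43, 1.32, 1.59 and 2.01, beside 0.51, 1.37, 1.69 and 2.05 for all members. At 8 hpl 3 of the 17 were called higher, where 22 of the 57 members and 12.0% of all tested probe sets were, and all 17 were from 16 hpl on.

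**Figure D4:**
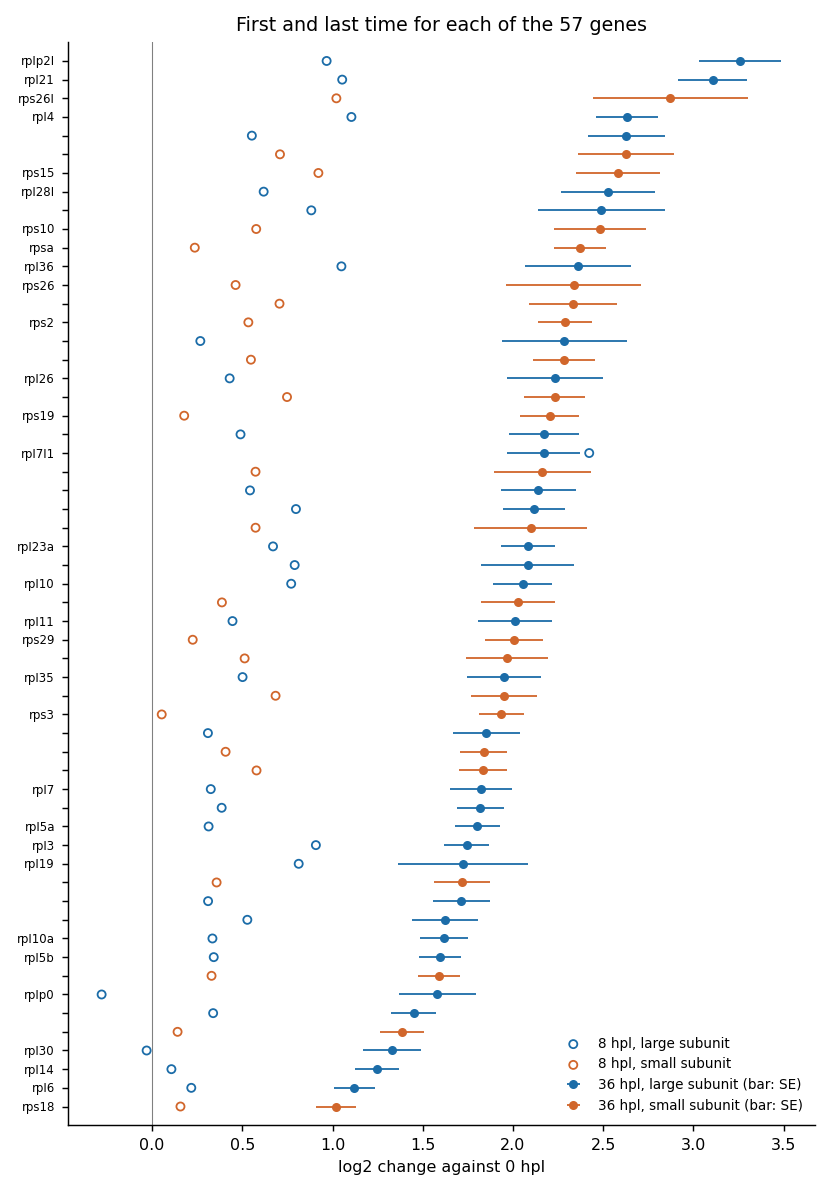
Log2 change against 0 hpl (horizontal axis) of each of the 57 genes at 8 hpl (open circles) and 36 hpl (filled circles, bars show the SE), ordered by the 36 hpl change and coloured by subunit, with the genes described in the text labelled. The 36 hpl changes run from 1.02 for rps18 to 3.26 for rplp2l, and large and small subunit genes are mixed along the order.

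The middle of the members, between the quartiles, spanned changes of 0.33 to 0.71 at 8 hpl and of 1.74 to 2.29 at 36 hpl. Of the 57 genes 10 had changed by less than 0.25 at 8 hpl, of which 6 were of the small subunit, and 36 had all 3 arrays above the controls (15.3% of all tested probe sets did). The 4 genes called and at least 2-fold higher were rpl7l1, rpl4, rpl21 and rpl36, where 4.39% of all tested probe sets were. The latter changed by 1.05, 1.75, 2.08 and 2.36 ± 0.29.

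The replicates of 8 hpl did not stand level. The member medians relative to 0 hpl were 0.22, 0.44 and 0.93 in replicates 1, 2 and 3. Replicate 3 was the highest of its group for 49 of the 57 genes, and replicate 1 the lowest for 45. The number of members called higher at 8 hpl was 11 without replicate 3 and 33 without replicate 1, with median changes of 0.30 and 0.68. It was 14 without 0 hpl replicate 1. At 16 hpl the member medians were 1.17, 1.33 and 1.67, and replicate 3 was again the highest for 48 genes. Whether samples with the same replicate number share a day or batch is not given in the labels. At 24 hpl they were 1.80, 1.57 and 1.70 and at 36 hpl 1.89, 2.11 and 2.09.

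In the same 8 hpl arrays the Müller glia markers summed to 8578, 8415 and 6780, the rod and cone markers to 2974, 4561 and 2529, and the inner neuron markers to 2542, 1888 and 1199. Replicate 3, highest for ribosomal proteins, was the lowest for these 3 marker sums. It was the highest for the 3 named oligodendrocyte markers, which summed to 221.7, 219.5 and 274.0. It also had the lowest weight of all arrays, 0.374, in a fit with array weights. The part of these differences in the 8 hpl values was not tested.

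The genes tended to move together within groups too. After the group means were removed, the residuals of 2 members over the 15 arrays had a median correlation of 0.618, and 84.3% of the 1596 pairs were above 0. The same was not measured for other probe sets, so this is not shown to be particular to ribosomal protein genes. The SE of single members ran from 0.11 for rps18 to 0.43 for rps26l. A displacement shared by many members in an array would enter their changes at once, and the 57 genes are not 57 separate measurements of the course.

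Members with a lower signal at 0 hpl had larger log2 changes. Across the 57 genes, Spearman's rho between the 0 hpl mean and the change was -0.46 at 8 hpl, -0.66 at 16 hpl, -0.72 at 24 hpl and -0.75 at 36 hpl. With the 0 hpl signal from replicate 1 and the 36 hpl change from the other 0 hpl arrays, rho was -0.69. The 19 dimmest genes had a median 36 hpl change of 2.37, the middle 19 of 2.12 and the 19 brightest of 1.72. The SD of the member means over genes narrowed from 1.104 at 0 hpl to 0.83 at 36 hpl. The highest value of a member was 12.70, at 36 hpl, where the highest of any probe set was 13.44. Signals of different probe sets are not levels of different genes, and whether bright probe sets record less of a change was not tested. The low changes of rps18 and rpl6, with 0 hpl means of 11.50 and 11.46, stand beside this.

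A further 17 ribosomal protein genes of the same table carry clone names there and were identified through RefSeq synonyms, so they fall outside the rule. Of these, 15 were called higher at 16 hpl (18.4% of all tested probe sets). All 17 were at 24 and 36 hpl (16.3% and 19.9%), and all peaked at 36 hpl. The 10 of the large subunit had median changes of 0.58, 1.53, 1.85 and 2.28, and the 7 of the small subunit 0.14, 1.46, 1.64 and 2.07. At 8 hpl 5 of the 10 were called higher, and of the 7, 1 was called higher and 1 lower. Of all tested probe sets 12.0% were called higher and 14.5% lower at that time. Whether the subunits differ among these genes was not tested. The gene rps6, whose protein is phosphorylated by S6 kinases, changed by 1.05, 2.15, 2.48 and 3.09 ± 0.15. The ubiquitin fusion gene rps27a changed by 0.14, 0.88, 1.07 and 1.19 ± 0.15.

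The gene rps27.1 was the only 1 of the 57 members and these 17 genes called lower at any of the 4 times. It read 9.24, 9.00 and 9.29 at 0 hpl, 8.53, 8.69 and 8.96 at 8 hpl, 9.37, 9.57 and 9.47 at 16 hpl, 9.88, 10.07 and 10.26 at 24 hpl and 10.59, 10.53 and 10.17 at 36 hpl. The 8 hpl arrays were all below the controls and all later ones above. It fell by 0.45 ± 0.16 at 8 hpl (adjusted p 0.0475), was not called at 16 hpl, and rose by 0.89 at 24 hpl and 1.26 at 36 hpl. Its other 2 probe sets gave -0.15 and -0.18 at 8 hpl and were not called there. At 16 hpl these 2 gave 0.66 (adjusted p 0.00313) and 0.52 (adjusted p 0.0148), and both were called higher, unlike the probe set used. Its paralog rps27.2 changed by -0.03, 0.58, 1.09 and 1.73 ± 0.34. Of 84 cytosolic ribosomal protein symbols in RefSeq, 74 are covered by the members and these 17, and the other 10 are not described here.

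Other parts of the translation machinery were set beside the ribosomal proteins at the same times. Of 47 listed translation factors and related genes 16 were named, and 13, 15, 16 and 16 of them were called higher, with median changes of 0.62, 1.57, 1.79 and 1.82. The elongation factor subunit gene eef1b2 changed by 1.58, 2.86, 2.97 and 2.91, and eef1a1l1 by 0.83, 1.52, 1.62 and 1.63. Over the last 3 of these times the ribosomal protein median went from 1.37 to 2.05, and that of the 16 genes from 1.57 to 1.82. Single genes of the 16 differed in this, and rack1, for example, went from 1.52 to 2.16.

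Ribosome assembly genes had a larger median change than the ribosomal proteins at 8 hpl and a smaller one at 36 hpl. Of 130 listed genes 56 were named, and 51, 55, 56 and 56 were called higher, with median changes of 1.17, 1.68, 1.71 and 1.39. Their median was 0.66 above that of the ribosomal proteins at 8 hpl and 0.66 below it at 36 hpl. The nucleolar genes npm1a (nucleophosmin) and gnl3 (nucleostemin) had changed by 3.62 and 2.72 already at 8 hpl, and by 3.92 and 2.92 at 36 hpl. The 10 named mitochondrial ribosomal proteins had medians of 0.70, 1.14, 1.24 and 1.17, with 8, 10, 10 and 10 called higher, and mrpl17 changed by 0.92, 1.70, 1.68 and 1.69. All these genes come from the same table of probe sets that changed at least 2-fold, and the differences between lists were not tested. Beside the counts of these lists, 12.0%, 18.4%, 16.3% and 19.9% of all tested probe sets were called higher at the 4 times.

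**Figure D5:**
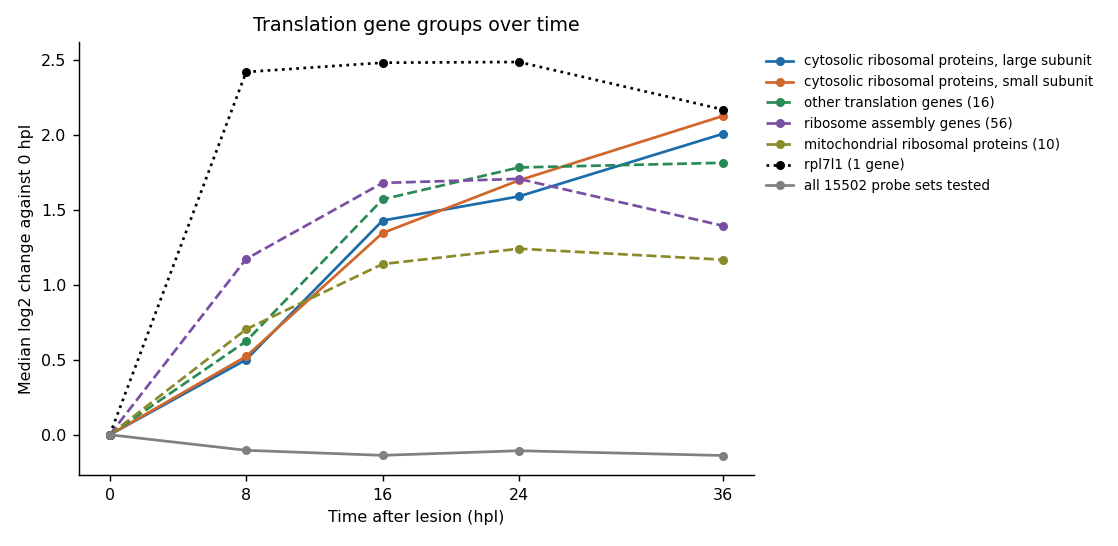
Median log2 change against 0 hpl (vertical axis) over hours post-lesion (horizontal axis) for both subunits of the cytosolic ribosome, 3 other gene lists, the single gene rpl7l1 and all 15502 tested probe sets. Of the list medians that of ribosome assembly genes is the highest at 8 hpl, at 1.17, and ends at 1.39, while the ribosomal protein medians end at 2.01 and 2.13.

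In the authors' deposited table, which gives signed fold changes and p-values by a test it does not state, fewer members passed. The authors' p was under 0.05 for 0 of the 57 genes at 8 hpl, 4 at 16 hpl, 21 at 24 hpl and 35 at 36 hpl. In the authors' deposited table as a whole 1.93%, 6.73%, 8.69% and 10.3% of probe sets were under 0.05 at these times. The 4 members under 0.05 at 16 hpl in the authors' deposited table were all of the large subunit, while 11 large and 10 small subunit genes were at 24 hpl and 20 and 15 at 36 hpl. On the log2 scale the fold changes of the authors' deposited table matched the differences between group means used here to within 5.02e-08, so both counts rest on the same values.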

How the data were processed

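Expression was measured on Affymetrix zebrafish arrays in sorted Müller glia. The deposited values are log2 values made by RMA, per the submitters' processing notes. Its version is not given in the sources used here. Another table holds the authors' deposited signed fold changes (a score without values between -1 and 1) and the authors' deposited p-values, with a test and an adjustment not given in the sources used here.

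Samples were grouped by time as labelled. The 115 control probe sets were left out, dim probe sets were kept since RMA gives no calls of detection, and limma 3.58.1 in R 4.3.3 was fitted to all 15 arrays (lmFit and eBayes, 1 coefficient per time). Benjamini-Hochberg adjustment ran over 15502 probe sets within each of 7 contrasts, and a call is an adjusted p under 0.05. The fit was tested on simulated data. Genes were named from the authors' deposited table, where 2511 probe sets carry 1 symbol, 108 several and 545 none, updated through RefSeq. Marker sums are sums of linear signals over the named markers.

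The members and lists were chosen with earlier results of these data known. Named genes were members of the role lists, the 3 largest and smallest changes per subunit and time, the 2 largest and smallest of each consecutive step, paralog pairs, members with several probe sets or called lower, and up to 4 genes per other list. A few genes that this rule names are not reported here. No sequences are shown. Alternatives covered normalisation, scaling, the low-signal filter, the variance model, array weights, the samples fitted, a replicate block, thresholds, the probe set per gene, the member rule and each array left out.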

Additional observations from a re-analysis of the deposited data

How the results depend on the processing

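The counts at 8 hpl and between consecutive times depended on the settings. Against 0 hpl, 56 or 57 members were called higher at 16 hpl and all 57 at 24 and 36 hpl in the alternatives that kept the 57 genes, except that a 2-fold minimum gave 51 at 16 hpl and 55 at 24 hpl. With quantile normalisation applied again, 13 members were called higher at 8 hpl and 1 from 24 to 36 hpl, and the medians at 24 and 36 hpl were 1.57 and 1.85. With arrays scaled on 18 hybridisation controls, 47 were called at 8 hpl and 8 from 24 to 36 hpl, and the medians at 16, 24 and 36 hpl were 1.75, 1.998 and 2.57 and that of the last step 0.55. That scaling moved the median change of all tested probe sets to 0.19, 0.25, 0.21 and 0.38 at the 4 times and made 87.4%, 86.2%, 81.9% and 88.2% of all calls higher ones, against 45.3%, 45.6%, 53.4% and 42.8%. Centring on array medians made them 66.3%, 60.2%, 60.5% and 52.6%. Between consecutive times the 3 shares were 63.7%, 51.7% and 60.5%, and 73.2%, 56.3% and 92.8% with control scaling, 62.0%, 34.4% and 63.8% with centring and 52.4%, 54.7% and 55.2% with quantile normalisation.

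With a fit on the 2 compared groups alone, 12 were called at 8 hpl, 29 from 8 to 16 hpl and 0 from 24 to 36 hpl. A 2-fold minimum gave 4, 11 and 0, and an adjusted p under 0.01 gave 11, 31 and 0. From 24 to 36 hpl 5 were called with trend and robust settings and 5 with array weights, which also gave 1 call from 16 to 24 hpl.

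Large minus small subunit was -0.0331 at 24 hpl and 0.0102 at 36 hpl with array weights, -0.0506 at 24 hpl with every probe set counted, and 0.0308 and -0.155 at 16 and 24 hpl with standard symbols only. With the 17 genes named through synonyms, an alternative chosen after seeing the data, it was 0.130 and 0.0404 at 16 and 24 hpl, 1 gene was called lower at 8 hpl and 5 higher in the last step. The cause of these shifts was not tested.

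With single arrays left out, calls higher ranged from 11 to 33 at 8 hpl, 56 to 57 at 16 hpl, 57 to 57 at 24 and 36 hpl, 31 (without 16 hpl replicate 3) to 54 (without 8 hpl replicate 3) from 8 to 16 hpl, 0 to 0 in the next step and 0 (without 24 hpl replicate 1 or 2 or 36 hpl replicate 2) to 4 in the last, and calls lower stayed at 0. Medians ranged from 0.30 to 0.68, 1.25 to 1.53, 1.61 to 1.74 and 1.995 to 2.098 against 0 hpl, and from 0.70 to 1.02, 0.18 to 0.42 and 0.31 to 0.41 between times. Large minus small ranged from -0.0815 to 0.0873, 0.0200 to 0.104, -0.110 to -0.0447 and -0.227 to 0.0260.

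The labels do not say whether a replicate number marks a shared day or batch. Residual correlations of the 30 same-numbered pairs ran from -0.34 to 0.40 and 9 were over 0.1. Those of the 60 other-numbered pairs ran from -0.34 to 0.40 and 20 were over 0.1. These values cannot exclude a pairing at some of the times. With replicate number as a block, 20 members were called higher at 8 hpl, 57 at 16, 24 and 36 hpl, 47 from 8 to 16 hpl, 0 in the next step and 2 in the last. Over named single genes and alternatives, 1885 values kept their direction and side of the threshold, 23 lost a call, 12 gained one and 0 changed sign while called. That there are only 3 arrays per group limits which small changes can be called.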
